A study of Mus musculus with 58 samples.

Results

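The genes described here are 10 genes of the major histocompatibility complex (MHC) antigen presentation system, chosen by symbol: 3 of class I (H2-K1, H2-D1 and B2m) and 7 of class II (H2-Aa, H2-Ab1, H2-Eb1, Cd74, Ciita, H2-DMa and H2-DMb1). They were followed in 58 polyA RNA-seq libraries of microglia, the resident macrophages of the brain, sorted from the forebrain of C57BL/6 mice as DAPI-negative, CD11b+, CD45low, CX3CR1+ cells. All 10 were listed among the 24940 genes of the age series count table, 8 among the 10277 genes of the wild-type oligonucleotide table (H2-Eb1 and Ciita are not listed there) and 9 among the 10589 genes of the SgshKO oligonucleotide table (Ciita is not listed there). Every listed member passed the filter on low counts, so 10, 8 and 9 members were tested beside 14309, 10277 and 10589 genes in all.

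The libraries fall into 13 groups. The age series compared mice labelled WT and SgshKO at 3 weeks (3 and 4 libraries), 4 months (2 and 2) and 8 months (4 and 7). Sgsh encodes sulfamidase, a lysosomal enzyme of heparan sulfate breakdown whose loss causes mucopolysaccharidosis IIIA. In a further set, WT mice received PBS, or an antisense oligonucleotide (ASO, a short nucleic acid that lowers its target RNA) labelled ntc, mitf, tfeb or tfe3, given once into a cerebral ventricle 14 days before the microglia were sorted (4 libraries each). SgshKO mice received the ntc ASO or a combination labelled combo, which per the series' design targets Mitf and Tfe3 (8 libraries each, in sets labelled grp 1 and grp 2 of 4 and 4). The labels give no age for the ASO mice, no sex for any mouse, and do not say whether a library is 1 animal or a pool, so the p-values measure the spread between libraries.

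Class I molecules consist of a heavy chain, here H2-K1 or H2-D1, bound to beta-2 microglobulin (B2m), and they show peptides from inside the cell to CD8 T cells. Class II molecules pair an alpha chain (H2-Aa) with a beta chain (H2-Ab1), are escorted by the invariant chain Cd74 and are loaded with peptide in endosomes by H2-DMa and H2-DMb1. H2-Eb1 is the beta chain of the second class II molecule, whose alpha chain gene is defective in C57BL/6 mice. Ciita is the co-activator that switches on class II genes. Microglia of healthy brain are known for steady class I and very low class II expression, and both classes are known to rise when microglia are activated.

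Total counts ran from 8191508 to 27106584 in the age series, from 14372015 to 30378870 in the WT ASO set and from 12517838 to 30431437 in the SgshKO ASO set. The ASO targets were lower in their own groups: Mitf went from a mean of 43.7 to 1.58 CPM (counts scaled to an effective library total of 1000000), Tfeb from 54.9 to 5.80 and Tfe3 from 198 to 38.1. With the combination, Mitf went from 72.4 to 15.3 CPM and Tfe3 from 170 to 80.4. Sgsh transcripts were still counted in SgshKO libraries (20.1 to 34.7 CPM at 8 months, against 31.9 to 59.2 in WT); the labels do not say which part of the gene is altered, so these counts do not check the genotype. Markers of microglia were high in all libraries at 8 months (10 genes, summed 41644 to 50585 CPM in WT and 33265 to 37046 in SgshKO). Of 10 marker genes of monocytes and neutrophils, 1 (Ly6g) was at 0 in every WT library at 8 months and none in SgshKO, and their sum was 11.4 to 13.6 CPM in WT against 448 to 5810 in SgshKO at 8 months and 3112 to 15189 at 4 months. In sorted bulk samples, more RNA per cell and more cells of a type cannot be told apart.

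The positions below are those of the age series table (mm10, 1-based). H2-K1 (17:33996012-34000333, minus strand), H2-DMa (17:34122832-34139101), H2-DMb1 (17:34153191-34160229), H2-Ab1 (17:34263227-34269418), H2-Aa (17:34282751-34287771, minus strand), H2-Eb1 (17:34305867-34316674) and H2-D1 (17:35263094-35267497) lie on chromosome 17. B2m lies on chromosome 2 (2:122147687-122153082) and Ciita on chromosome 16 (16:10480072-10527640). Class I and class II promoters are known to share an X box, bound by the RFX complex, and a Y box, bound by NF-Y, through which Ciita and Nlrc5 act. The 130 bases before the start are shown for the 7 members with an entry in the RefSeq promoter table (GRCm38.p6), so that the spacing of these boxes can be seen. Any relation of these letters to the responses below was not tested. Capitals mark the X box core, searched as ACNGATG, and the Y box core, searched as ATTGG, on either strand.
H2-K1 (chr17:34000334-34000463, minus strand): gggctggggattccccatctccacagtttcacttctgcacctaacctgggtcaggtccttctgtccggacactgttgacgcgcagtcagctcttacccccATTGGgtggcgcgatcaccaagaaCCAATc
H2-D1 (chr17:35262964-35263093, plus strand): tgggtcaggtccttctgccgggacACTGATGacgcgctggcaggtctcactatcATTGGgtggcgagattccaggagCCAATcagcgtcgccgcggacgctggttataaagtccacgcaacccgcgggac
B2m (chr2:122147557-122147686, plus strand): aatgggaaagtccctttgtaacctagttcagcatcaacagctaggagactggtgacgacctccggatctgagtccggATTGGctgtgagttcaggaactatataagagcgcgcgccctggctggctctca
H2-Aa (chr17:34287824-34287953, minus strand): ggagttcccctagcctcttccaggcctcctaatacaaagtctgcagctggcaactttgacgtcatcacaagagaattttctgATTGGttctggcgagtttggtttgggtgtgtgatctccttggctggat
H2-Eb1 (chr17:34305737-34305866, plus strand): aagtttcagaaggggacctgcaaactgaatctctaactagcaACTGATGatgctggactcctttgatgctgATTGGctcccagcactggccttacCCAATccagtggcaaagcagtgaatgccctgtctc
H2-DMa (chr17:34122702-34122831, plus strand): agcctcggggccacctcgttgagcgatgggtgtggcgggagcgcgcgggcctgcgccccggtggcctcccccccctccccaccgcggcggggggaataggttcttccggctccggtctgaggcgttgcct
H2-DMb1 (chr17:34153061-34153190, plus strand): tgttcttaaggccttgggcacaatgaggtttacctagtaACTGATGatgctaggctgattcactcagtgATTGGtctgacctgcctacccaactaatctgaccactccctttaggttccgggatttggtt

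The X box core lay at position -106 relative to the start of H2-D1, -88 of H2-Eb1 and -91 of H2-DMb1, and the Y box core began 30, 29 and 30 bases after it. An X box core 29 or 30 bases before a Y box core on the same strand was found in 11 of 32817 RefSeq promoter windows (0.0335%). Each window ran from 250 bases before to 50 after a start, and 9.85% held the X box core and 37.4% the Y box core, alone or together. The spacing counted is the spacing seen in these members, and the 11 include them and the related H2-DMb2 and H2-Eb2. The share is therefore a description and no independent test. H2-K1, B2m and H2-Aa held the Y box letters within these 130 bases without these exact X box letters, and H2-DMa held neither. X boxes with other letters were not searched for, so these genes cannot be said to lack an X box. A match is a description of the letters and no match says only that these letters are not in the window. Each window belongs to the start listed for that gene. H2-DMa has 8 annotated transcripts (GENCODE), and whether they share this start was not examined, so its window may not be the promoter in use. The E-box CACGTG and the M-box CATGTG, the letters bound by the Mitf and Tfe family, were in none of the 7 members' windows and in 7.15% and 14.2% of all windows. With only 7 windows, finding none is near these shares.

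The class I members were higher in SgshKO microglia at 3 weeks, and no class II member was. H2-K1 stood at 210, 222 and 185 CPM in the WT libraries and at 372, 301, 309 and 259 in the SgshKO libraries. H2-D1 stood at 224, 241 and 189 CPM in WT and at 395, 412, 453 and 344 in SgshKO. B2m stood at 1332, 1259 and 1048 CPM in WT and at 1789, 2024, 1786 and 1565 in SgshKO. For each of these 3 genes every SgshKO library lay above every WT library. The rise was 1.51-fold for H2-K1 (log2 fold change 0.60 ± 0.14 SE, adjusted p = 0.00556 by edgeR's quasi-likelihood test with Benjamini-Hochberg adjustment), 1.84-fold for H2-D1 (0.88 ± 0.13, adjusted p = 6.1e-05) and 1.48-fold for B2m (0.56 ± 0.10, adjusted p = 0.000432). B2m missed the threshold in limma on log2(TPM + 1) without a filter (adjusted p = 0.0550). Of the 10 members 4 passed the threshold of an adjusted p of 0.05, beside 9.03% of all genes tested.

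The fourth was H2-DMa, and it was lower. This subunit of the class II peptide exchange factor stood at 83.1, 86.5 and 96.4 CPM in WT and at 44.5, 54.7, 56.2 and 50.6 in SgshKO, without overlap, a 1.72-fold fall (log2 fold change -0.79 ± 0.10, adjusted p = 2.5e-06). Its partner H2-DMb1 was nearly level, at 33.7 to 40.6 CPM in WT and 31.8 to 40.6 in SgshKO, with a log2 difference between -0.27 and 0.14 (95% interval). The class II chains were near the detection limit at this age. H2-Aa was at 0.542 to 0.670 CPM in WT and 0.290 to 0.712 in SgshKO, and H2-Eb1 at 0.210 to 0.963 and 0.219 to 0.570. Cd74, the most abundant of the inducible class II genes in CPM, stood at 31.4, 30.5 and 19.9 in WT and at 25.1, 28.3, 34.1 and 24.3 in SgshKO, overlapping (log2 fold change 0.03 ± 0.25, adjusted p = 0.974). Ciita had 14, 11 and 9 counts in WT and 5, 5, 5 and 1 in SgshKO; the groups did not overlap, but the difference did not pass the test (-1.48 ± 0.88, adjusted p = 0.399).

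**Figure D1:**
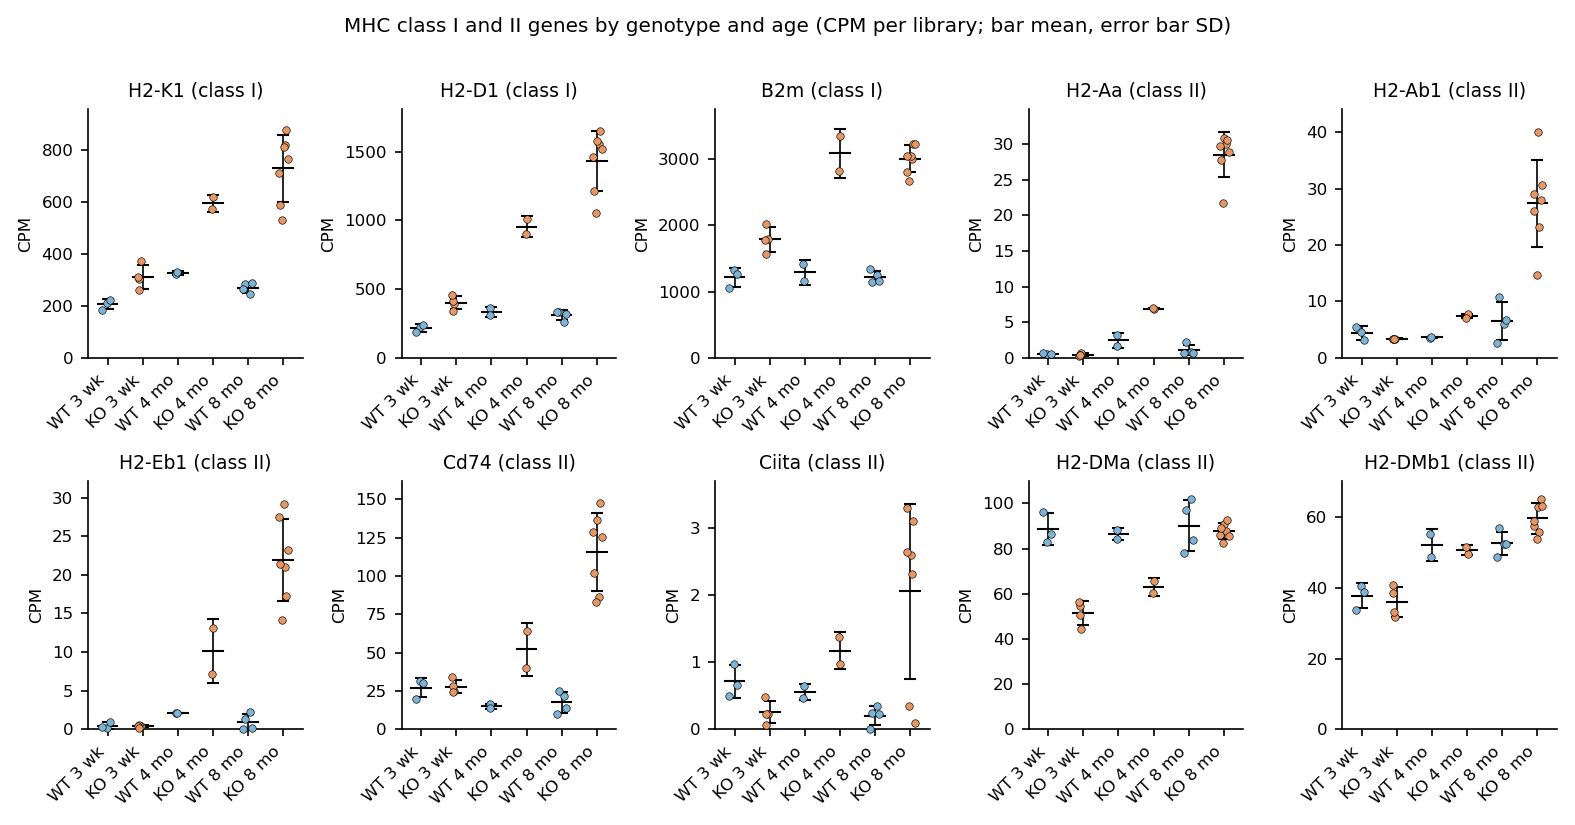
Levels of the 10 members in the age series, in TMM-scaled CPM (vertical axes, each starting at 0), for WT and SgshKO microglia at 3 weeks, 4 months and 8 months. Points are libraries and bars the group mean with its SD; at 8 months the 7 SgshKO libraries of H2-Aa stood at 21.8 to 30.8 against 0.708 to 2.23 in the 4 WT libraries, while those of H2-DMa lay within the WT range.

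At 4 months class II genes had joined class I. H2-Aa stood at 3.19 and 1.72 CPM in the WT libraries and at 6.85 and 6.96 in the SgshKO libraries. Cd74 stood at 16.3 and 13.7 CPM in WT and at 64.3 and 40.1 in SgshKO, and H2-Eb1 at 2.13 and 2.15 and at 13.1 and 7.22. None of these 3 overlapped between genotypes, and all passed the test (log2 fold change 1.54 ± 0.40 with adjusted p = 0.00731 for H2-Aa, 1.80 ± 0.35 with 0.00052 for Cd74 and 2.23 ± 0.65 with 0.0157 for H2-Eb1, edgeR). H2-Ab1 stood at 3.55 and 3.73 CPM in WT and at 7.70 and 7.14 in SgshKO, which did not pass (1.02 ± 0.45, adjusted p = 0.12). Among class I genes, H2-D1 went from 362 and 311 to 1007 and 902 CPM and B2m from 1420 and 1159 to 3348 and 2828, log2 fold changes of 1.5 ± 0.18 and 1.26 ± 0.13, while H2-K1 was at 321 and 330 against 617 and 571 (0.87 ± 0.18). All 3 passed, without overlap (adjusted p at most 0.00121, edgeR). H2-DMa was again lower, at 88.2 and 84.5 in WT and 65.9 and 60.3 in SgshKO (-0.45 ± 0.13, adjusted p = 0.0125).
With 2 libraries a group, 7 of 10 members passed, beside 19.5% of all genes, and 4 did without WT replicate 2, where H2-Aa (adjusted p = 0.171), H2-Eb1 (0.121) and H2-DMa (0.0634) no longer passed. H2-Eb1 also missed the threshold without WT replicate 1 (0.0940) or SgshKO replicate 1 (0.116), and H2-DMa without WT replicate 1 (0.0967) or SgshKO replicate 2 (0.0891). The sum of the monocyte and neutrophil markers was 3112 and 15189 CPM in the SgshKO libraries of this age and 10.3 and 14.5 in the WT libraries, and its part in these values was not tested.

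At 8 months H2-Aa and H2-Eb1 showed the widest differences of the 10 members. H2-Aa stood at 0.832, 2.23, 0.708 and 0.708 CPM in WT, and in SgshKO the lowest of 7 libraries was 21.8, the median 29.7 and the highest 30.8, a 24.4-fold rise (log2 fold change 4.61 ± 0.28, adjusted p = 2.24e-12, edgeR). H2-Eb1 stood at 2.22, 1.41, 0.189 and 0.0884 CPM in WT and at 14.2, 21.5 and 29.2 (lowest, median and highest) in SgshKO, a 22.2-fold rise (4.47 ± 0.46, adjusted p = 2.77e-08). Cd74 went from 21.6, 25.2, 14.0 and 9.91 CPM to 82.9, 125 and 147, a 6.49-fold rise (2.70 ± 0.23, adjusted p = 6.75e-10). In these 3 genes the lowest SgshKO library was above the highest WT library by a wide margin.
H2-Ab1, the partner chain of H2-Aa, rose less: it stood at 6.03, 10.8, 6.75 and 2.56 CPM in WT and at 14.8, 28 and 40.1 in SgshKO (4.12-fold, 2.04 ± 0.27, adjusted p = 1.13e-06). Scaled by transcript length as well, in the deposited TPM, H2-Ab1 was at 8.58 ± 4.33 and H2-Aa at 1.64 ± 1.07 in WT (SD, n = 4), so the beta chain was on average the more abundant. In SgshKO the levels were 32.6 ± 8.68 and 38.0 ± 3.57 TPM (SD, n = 7), which overlapped. The ratio of H2-Aa to H2-Ab1 in CPM was 0.181 in WT and 1.09 in SgshKO (exact permutation test, 2-sided, p = 0.00606, the smallest possible, and 0.0113 adjusted over 13 ratio tests). The WT ratio rests on few reads, as H2-Aa had only 8 counts in the lowest WT library. At 3 weeks the ratio was 0.139 in WT and 0.126 in SgshKO (exact permutation test, p = 0.686). At 4 months it overlapped, at 0.900 and 0.462 in the WT libraries and 0.889 and 0.976 in the SgshKO libraries.

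Ciita, the class II co-activator, was not high in all SgshKO libraries. Its counts were 5, 5, 5 and 0 in the WT libraries at 8 months and 63, 5, 69, 48, 47, 66 and 1 in the SgshKO libraries 1 to 7. The groups therefore overlapped, through SgshKO libraries 2 and 7, although the mean difference passed the test (log2 fold change 3.23 ± 0.79, adjusted p = 0.00198). In those 2 libraries H2-Aa stood at 21.8 and 28.9 CPM, Cd74 at 82.9 and 125 and H2-Eb1 at 14.2 and 23.2, all above every WT library.

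The class I genes rose in every SgshKO library at 8 months. H2-D1 stood at 263, 334, 317 and 335 CPM in WT and at 1053, 1521 and 1648 (lowest, median and highest) in SgshKO, a 4.59-fold rise (log2 fold change 2.20 ± 0.12, adjusted p = 2.87e-13). H2-K1 went from 245, 282, 288 and 263 to 529, 763 and 875, a 2.70-fold rise (1.43 ± 0.12, adjusted p = 6.5e-10). B2m, already among the abundant transcripts in WT at 1244, 1149, 1163 and 1339 CPM, reached 2674, 3046 and 3227 (1.30 ± 0.09, adjusted p = 1.26e-11). The heavy chains rose by unequal amounts: the ratio of H2-D1 to H2-K1 was 1.16 in WT and 1.98 in SgshKO (exact permutation test, p = 0.00606, adjusted 0.0113). Beside the heavy chains B2m rose least, and its TPM over the summed TPM of H2-K1 and H2-D1 was 4.19 in WT and 2.81 in SgshKO (exact permutation test, p = 0.00606, adjusted 0.0113).

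Both chains of H2-DM stood apart from the other class II members. H2-DMa at 8 months was at 102, 97.1, 84.0 and 77.9 CPM in WT and at 82.7, 87.6 and 92.6 (lowest, median and highest) in SgshKO, with a log2 difference of -0.04 ± 0.08 and a 95% interval of -0.19 to 0.11. On the TPM scale the difference was -0.17 and passed (adjusted p = 0.0425 by limma on log2(TPM + 1)). H2-DMb1 was at 48.6 to 56.7 CPM in WT and 53.6 to 65.1 in SgshKO (0.18 ± 0.08, adjusted p = 0.0899, interval 0.02 to 0.34). In all, 8 of 10 members rose at 8 months, 3 of class I and 5 of 7 of class II, beside 40.5% of all genes called in either direction and 21.6% called higher; the median log2 fold change was 1.43 over the class I members and 2.70 over the class II members, against 0.02 over all genes tested. At 3 weeks those medians were 0.60 and -0.39, against -0.02.

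**Figure D2:**
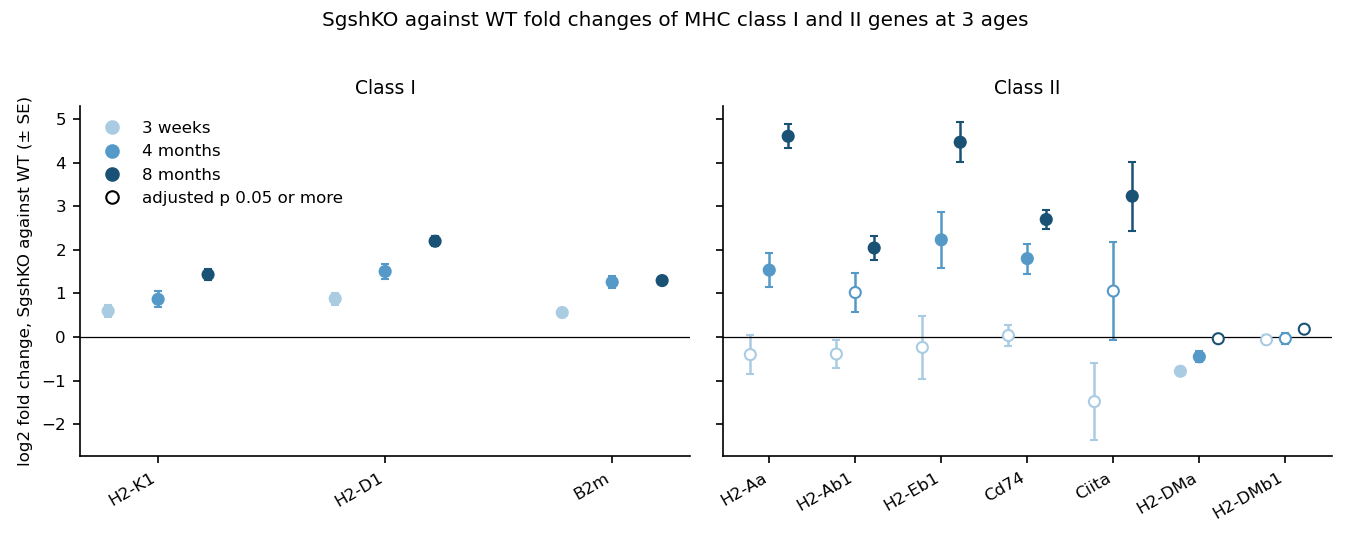
Log2 fold change of each member in SgshKO against WT microglia (axis in log2 units, bars ± SE) at 3 weeks, 4 months and 8 months, for class I and class II members; open symbols did not pass the adjusted p threshold of 0.05. At 3 weeks H2-K1, H2-D1 and B2m lay above 0 and H2-DMa below it; at 8 months H2-Aa and H2-Eb1 were the highest, at 4.61 and 4.47.

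Measured per transcript length at 8 months, the order of the members in WT microglia was B2m (2250 ± 193 TPM, SD, n = 4), H2-D1 (283 ± 32.1), H2-K1 (258 ± 18.5), H2-DMa (85.5 ± 9.51), H2-DMb1 (64.4 ± 3.16), Cd74 (21.9 ± 8.29), H2-Ab1 (8.58 ± 4.33), H2-Aa (1.64 ± 1.07), H2-Eb1 (0.912 ± 0.955) and Ciita (0.0625 ± 0.0444). H2-D1 and H2-K1 differed by less than their spread, as did H2-Aa and H2-Eb1. In SgshKO microglia B2m was at 4990 ± 236 TPM (SD, n = 7), H2-D1 at 1173 ± 158, H2-K1 at 628 ± 102 and Cd74 at 131 ± 26.4, so that Cd74 moved above H2-DMa (75.4 ± 2.95) and H2-DMb1 (66.0 ± 3.83). Class II stayed the minor class: the summed TPM of H2-Aa, H2-Ab1, H2-Eb1 and Cd74 were 1.21% of those of H2-K1, H2-D1 and B2m in WT at 8 months and 3.23% in SgshKO (exact permutation test, p = 0.00606, adjusted 0.0113). At 3 weeks the share was 1.56% in WT and 1.03% in SgshKO (exact permutation test, p = 0.0571, the smallest that 3 against 4 libraries can give), and at 4 months 0.978% and 1.33% with 2 libraries each.

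**Figure D3:**
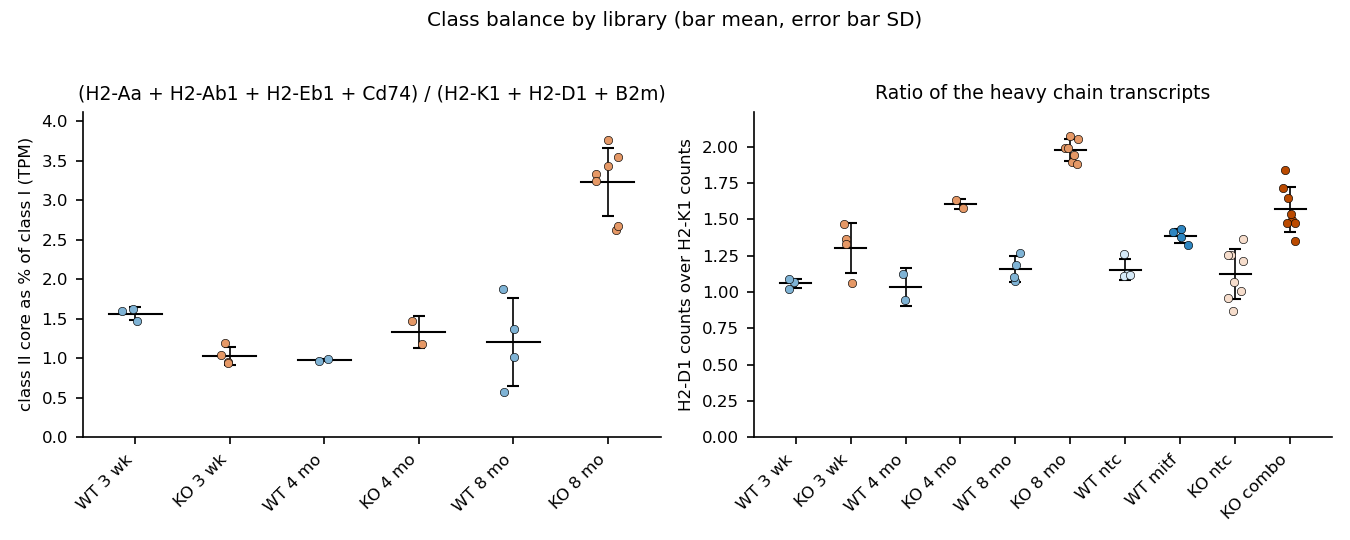
Summed TPM of the 4 inducible class II genes (H2-Aa, H2-Ab1, H2-Eb1, Cd74) as a percentage of that of the 3 class I genes (left), and the ratio of H2-D1 to H2-K1 counts (right), by library and group. The age series and the ASO sets were deposited as separate counts with different gene identifiers. The ratios at right are therefore to be compared within the age series or within an ASO set only. Points are libraries and bars group means with the SD; SgshKO libraries at 8 months had a mean class II share of 3.23% against 1.21% in WT.

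The SgshKO effect was higher at 8 months than at 3 weeks for 9 of 10 members. The difference between the genotype effects at 8 months and 3 weeks was tested as an interaction, which 9.25% of all genes passed, 5.98% upward: it was 5.01 ± 0.54 on the log2 scale for H2-Aa, 4.71 ± 0.88 for H2-Eb1, 4.71 ± 1.17 for Ciita, 2.66 ± 0.33 for Cd74 and 2.43 ± 0.42 for H2-Ab1. For the class I genes it was 1.32 ± 0.17 for H2-D1, 0.84 ± 0.18 for H2-K1 and 0.73 ± 0.13 for B2m, and for H2-DMa 0.75 ± 0.12, which took it from a fall at 3 weeks to the WT level (adjusted p from 9.5e-07 for H2-Aa to 0.0104 for Ciita; edgeR). H2-DMb1 was the exception (0.24 ± 0.13, adjusted p = 0.287). In limma on log2(TPM + 1) without a filter 7 members passed, B2m (adjusted p = 0.0584) and Ciita (0.0701) not among them.
Between 3 weeks and 4 months the interaction passed for B2m (0.70 ± 0.17, adjusted p = 0.0221) and Cd74 (1.77 ± 0.42, adjusted p = 0.0244), beside 2.52% of all genes, and neither passed when WT 4-month replicate 2 was left out (0.174 and 0.162). Leaving out 1 library at a time, B2m missed the threshold in 4 fits and Cd74 in 5. Between 4 and 8 months it passed for H2-Aa (3.07 ± 0.48, adjusted p = 0.00438), beside 0.391% of all genes, and not without WT 4-month replicate 1 (0.0879).

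Age in WT microglia was followed by a rise of 2 of 10 members from 3 weeks to 8 months, H2-D1 by 0.52 ± 0.13 (adjusted p = 0.0153) and H2-DMb1 by 0.48 ± 0.10 (adjusted p = 0.00367) on the log2 scale, beside 7.65% of all genes called and 3.02% called higher. Other members had larger estimates with wide errors that did not pass: Ciita -1.70 ± 0.88 (adjusted p = 0.276) and H2-Aa 0.96 ± 0.39 (0.141), both without overlap, H2-Eb1 0.94 ± 0.64 (0.449) and Cd74 -0.61 ± 0.25 (0.15). Without WT 3-week replicate 3, H2-D1 did not pass (adjusted p = 0.108). Within SgshKO all 10 members were higher at 8 months than at 3 weeks, beside 15.5% of all genes called higher and 30.6% called in either direction, from 0.73 for H2-DMb1 and 0.75 for B2m to 5.65 for H2-Eb1 and 5.97 for H2-Aa. These comparisons share libraries with those between genotypes.

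Markers of other cells were set beside the rise at 8 months. SgshKO library 6, with the lowest sum of monocyte and neutrophil markers (448 CPM), had 30.5 CPM of H2-Aa, and library 3, with the highest (5810), had 30.8. In TPM, libraries 6 and 3 had 33.5 and 47.3 of H2-Ab1, 14.7 and 24.6 of H2-Eb1, and 168 and 151 of Cd74. With libraries 1 and 3 left out together, the 2 highest in the monocyte and neutrophil sum, the same 8 members were called. The log2 fold changes were 4.56 for H2-Aa, 4.38 for H2-Eb1 and 2.14 for H2-D1. The SgshKO libraries kept still held 448 to 803 CPM of these markers, against 11.4 to 13.6 in WT. This fit therefore cannot separate marker level from genotype. The sum of 10 markers of conventional dendritic cells, which carry much class II, was 24.5 to 33.7 CPM in WT. In SgshKO it was 22 to 56.9, with 22.5 in library 6 and 56.9 in library 3. Clec9a, Cd209a and Ccr7 were at 0 in all WT libraries. SgshKO libraries had 0.847 to 3.21 CPM of Clec9a and 0.515 to 3.72 of Cd209a. The sum of 10 border macrophage markers was 1325 to 1722 in WT and 1147 to 1924 in SgshKO, of which Stab1 made up most; Mrc1 was at 14.4 to 31.3 and 46.0 to 96.6 and Ms4a7 at 0 to 0.0472 and 2.84 to 7.55, and Cd209f was at 0 in both. Of 8 listed B cell markers, Pax5 and Blk were at 0 in both genotypes and Ms4a1 at or below 0.265 CPM, while the sum was 31.5 to 34.2 in WT and 186 to 241 in SgshKO through Cd22 (11.1 to 15.4 and 168 to 224). T and NK cell markers (9 listed) summed to 0 to 0.425 CPM in WT, with 6 at 0 in every library, and to 0.361 to 3.59 in SgshKO, with Gzma and Ncr1 at 0. The part of these cell types in the class II values was not tested.

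The wider class I pathway is given beside the 40.5% of all genes called at 8 months (21.6% higher) and the 9.03% called at 3 weeks. At 8 months, of 18 tested genes in a list of 20 other class I and class I-like genes, 13 rose and 3 fell (median log2 fold change 1.32 against 0.02 over all genes), led by H2-Q9 (3.34), H2-Q7 (3.33) and H2-Q8 (2.81), non-classical heavy chains of near-identical sequence whose reads may be shared. Of 14 peptide loading genes 9 rose and none fell (median 0.30). Nlrc5, the class I counterpart of Ciita, rose from a mean of 12.5 to 48.6 CPM (1.97), and the immunoproteasome subunit Psmb8 (0.72) and the proteasome activator Psme1 (0.68) rose by less. Nlrc5 was already higher at 3 weeks (1.19), when 2 of the 14 rose (with the chaperone Canx, 0.39) and 2 of the 18 class I genes rose (H2-Q5, 1.74, and Mr1, 0.90) and 2 fell, among them the lipid-presenting Cd1d1 (-0.82).

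The rest of the class II pathway was mixed. At 8 months the shares called of the other class II and MHC transcription lists were nearer to the 40.5% of all genes. The share of the co-stimulation list was farther from it. Of 12 other class II genes tested at 8 months 5 rose and 2 fell (median 0.32), led by the cathepsin Ctsl (1.85), the thiol reductase Ifi30 (1.19) and the cathepsin Ctss (1.07), which degrade antigen or the invariant chain in the endosome. At 3 weeks 4 of the 12 rose and none fell (median -0.04), beside 9.03% of all genes, among them Ctsl (0.69), Ifi30 (0.48) and March8 (0.44), a ubiquitin ligase. Of 16 genes of MHC transcription and its interferon gamma pathway 3 rose and 5 fell at 8 months (median -0.16); the receptor chain Ifngr1 (-0.73) and the Y box subunit Nfyb (-0.54) were among those that fell. Ifngr1 had also fallen at 3 weeks (-0.35). Of 10 co-stimulation genes 6 rose and 1 fell at 8 months (median 1.26) and 4 rose at 3 weeks (median 0.09); the inhibitory ligand Cd274 (1.89 and 0.90), Cd83 (1.77 and 0.91), which stabilises class II at the surface, and the adhesion ligand Cd48 (1.43 and 0.97) led at both ages.

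Genes whose pattern over the 22 age libraries was most like the members' were found by Pearson's r of log2 CPM, as a description over libraries that share genotype and age. For the mean of the class I members they included Rxrg (0.985), a nuclear receptor that went from 0.346 to 18.8 CPM at 8 months, H2-L (0.983), Fth1 (0.977), the ferritin heavy chain, and Slamf9 (0.975). H2-L went from 174 to 837 CPM, and since C57BL/6 mice are known to lack this gene, its counts may be reads that it shares with H2-D1. The H2-D1 levels and the ratio of H2-D1 to H2-K1 in the age series carry this limit. The sharing was not tested. In the ASO tables Fth1 had r of 0.898 over 20 and 0.766 over 16 libraries, and Slamf9 0.627 and -0.01. For the mean of H2-Aa, H2-Ab1, H2-Eb1 and Cd74 they were Mamdc2 (0.963), which went from 0.060 to 13.7 CPM, the integrin chain Itgb2 (0.952), the iron carrier Trf (0.952), 1700071M16Rik (0.951) and the cytokine receptor Crlf2 (0.948). Where listed, their r with the class II genes in the ASO tables lay between -0.05 and 0.33.

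In WT microglia the mitf ASO was followed by higher B2m and H2-D1. B2m stood at 1788, 1699, 1821 and 1893 CPM with the ntc ASO and at 2628, 2457, 2423 and 2650 with the mitf ASO. H2-D1 stood at 360, 372, 455 and 355 and at 482, 528, 591 and 485. Neither gene overlapped between groups, and the log2 fold changes were 0.50 ± 0.05 (adjusted p = 1.6e-06) and 0.44 ± 0.08 (adjusted p = 0.00147). H2-DMa overlapped, at 164 to 187 and 185 to 205 CPM, and passed by a small margin (0.20 ± 0.06, adjusted p = 0.0425); it did not in 7 of 8 fits that left out 1 library (adjusted p 0.0722 to 0.158). H2-K1 did not pass (0.17, adjusted p = 0.084). In all 3 of 8 members rose, beside 5.77% of all genes called higher and 11.0% called in either direction.

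The inducible class II genes spread widely within the ntc group. H2-Aa stood at 0.709, 10.4, 3.23 and 1.97 CPM with ntc and at 0.716, 1.13, 1.53 and 3.73 with the mitf ASO, and replicate 2 of ntc was also the highest of its group in H2-Ab1 (13.6, the others 4.89 to 7.17) and Cd74 (28.5, the others 12.5 to 26.4). The log2 fold change of H2-Aa was -1.30 ± 0.63 (adjusted p = 0.203), of Cd74 -0.29 and of H2-Ab1 -0.02. With the mitf ASO, 4 of 7 listed other class II genes rose and none fell (median 0.26 against -0.01 over all genes), as did 2 of 14 peptide loading genes and 2 of 7 co-stimulation genes, while 2 of 11 other class I genes fell. The shares called in the peptide loading and class I lists were near the 11.0% of all genes.

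The tfeb and tfe3 ASOs, compared with the same ntc libraries, were followed by higher B2m. It stood at 1997 to 2363 CPM with tfeb and at 2098 to 2490 with tfe3, above all ntc libraries in both (log2 fold change 0.28 ± 0.05 with adjusted p = 0.00467, and 0.34 ± 0.05 with 0.000446). It was the 1 member of 8 that passed in each, beside 0.778% of all genes for tfeb and 2.16% for tfe3. H2-D1 missed the threshold in both (0.33 ± 0.08 with adjusted p = 0.054, and 0.30 ± 0.08 with 0.0549) and passed it with DESeq2 (0.00392 and 0.00700). B2m under tfeb did not pass without ntc replicate 1 (0.0668) or without the replicate block (0.135).
Between the ntc ASO and PBS none of 8 members and 0.0% of all genes passed with edgeR, where 415 genes had an unadjusted p under 0.05; DESeq2 called 2 genes and limma 1. B2m stood at 1574 to 1695 CPM with PBS, below all ntc libraries, at a log2 difference of 0.15.

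**Figure D4:**
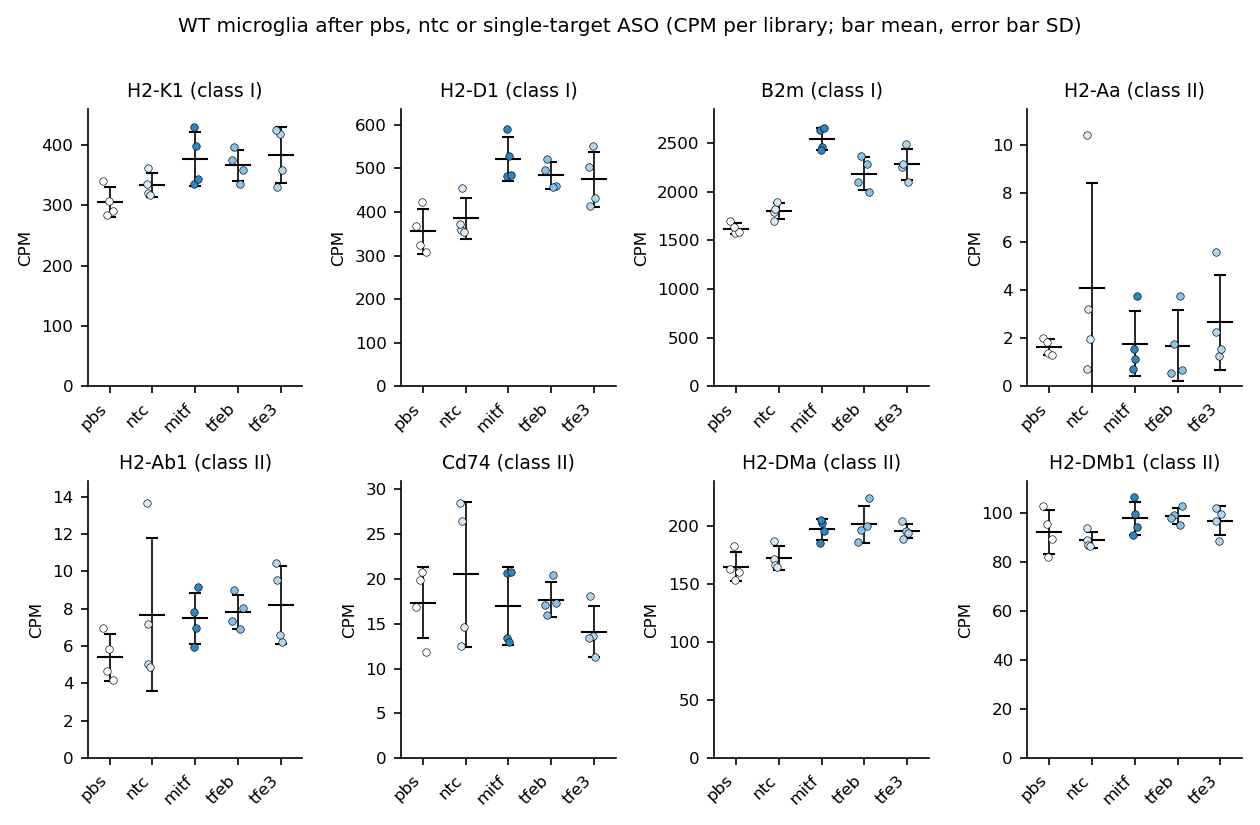
Levels of the 8 listed members in WT microglia after PBS or the ntc, mitf, tfeb or tfe3 ASO, in TMM-scaled CPM (vertical axes from 0). Points are libraries and bars the mean with its SD (n = 4 a group); B2m with the mitf ASO stood at 2423 to 2650, above the 1699 to 1893 of ntc, and 1 ntc library of H2-Aa stood at 10.4.

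In SgshKO microglia the Mitf and Tfe3 combination was followed by a rise of H2-DMa and H2-D1, and H2-Aa, H2-Ab1, H2-Eb1 and Cd74 did not pass. H2-DMa stood at 54.6, 57.6 and 65.5 CPM (lowest, median and highest of 8) with ntc and at 85.7, 92.5 and 112 with the combination, without overlap, a 1.62-fold rise (log2 fold change 0.70 ± 0.05, adjusted p = 3.99e-08, edgeR). H2-D1 stood at 437, 591 and 726 with ntc and at 757, 881 and 1031 with the combination, also without overlap (1.51-fold, 0.60 ± 0.09, adjusted p = 0.000666). B2m stood at 3126, 3317 and 4158 and at 4045, 4243 and 4950, overlapping through grp 1 replicate 3 of ntc, and rose 1.27-fold (0.35 ± 0.05, adjusted p = 0.000453). Of 9 members 3 rose and none fell, beside 4.84% of all genes called higher and 9.33% called in either direction.

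The partners of these genes moved less. H2-K1 stood at 449, 508 and 677 CPM with ntc and 512, 534 and 688 with the combination (0.12 ± 0.06, adjusted p = 0.235), and the ratio of H2-D1 to H2-K1 was 1.13 and 1.57 (exact permutation test, p = 0.000311, adjusted 0.00202). H2-DMb1 stood at 50.5 to 69.7 and 45.2 to 77.3 (0.09 ± 0.07, adjusted p = 0.471), and the ratio of H2-DMa to H2-DMb1 went from 0.997 to 1.53 (exact permutation test, p = 0.000155, the smallest possible, adjusted 0.00202). In the age series the same ratio was lower in SgshKO, at 1.48 against 1.72 in WT at 8 months (exact permutation test, p = 0.00606, adjusted 0.0113) and at 1.43 against 2.38 at 3 weeks (exact permutation test, p = 0.0571, the smallest possible).

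H2-Aa stood at 3.12, 5.81 and 11.9 CPM with ntc and at 0.909, 4.34 and 13.1 with the combination (log2 fold change -0.22 ± 0.36, adjusted p = 0.749). Cd74 stood at 11.8, 25.7 and 39.2 and at 17.5, 23 and 36.2, with a 95% interval of the difference from -0.42 to 0.38. H2-Ab1 (0.30, adjusted p = 0.329) and H2-Eb1 (-0.43 ± 0.37, adjusted p = 0.51) overlapped as well. The ratio of H2-Aa to H2-Ab1 was lower with the combination, at 0.945 with ntc and 0.642 (exact permutation test over both sets together, p = 0.0301, adjusted 0.0490). The lowest ratio with the combination, 0.128 in grp 1 replicate 4, rests on few reads, as H2-Aa had only 14 counts in the lowest combination library. Within grp 2 alone H2-Eb1 was lower, at 3.53, 3.81, 3.52 and 5.60 with ntc and 1.40, 2.07, 1.91 and 2.96 with the combination (-0.99, adjusted p = 0.0477). In grp 1 it overlapped, at 0.687 to 4.85 and 1.10 to 5.75; the difference between the sets was not tested. H2-D1 passed in grp 1 (0.78, adjusted p = 0.0433) and grp 2 (0.41, 0.00656), as did H2-DMa (0.75, 0.00548, and 0.64, 5.35e-05), and B2m in grp 2 (0.40, 0.000183) and not in grp 1 (0.30, 0.0928). The monocyte and neutrophil marker sum was 4.3 to 46 CPM in grp 1 and 77 to 585 in grp 2.

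**Figure D5:**
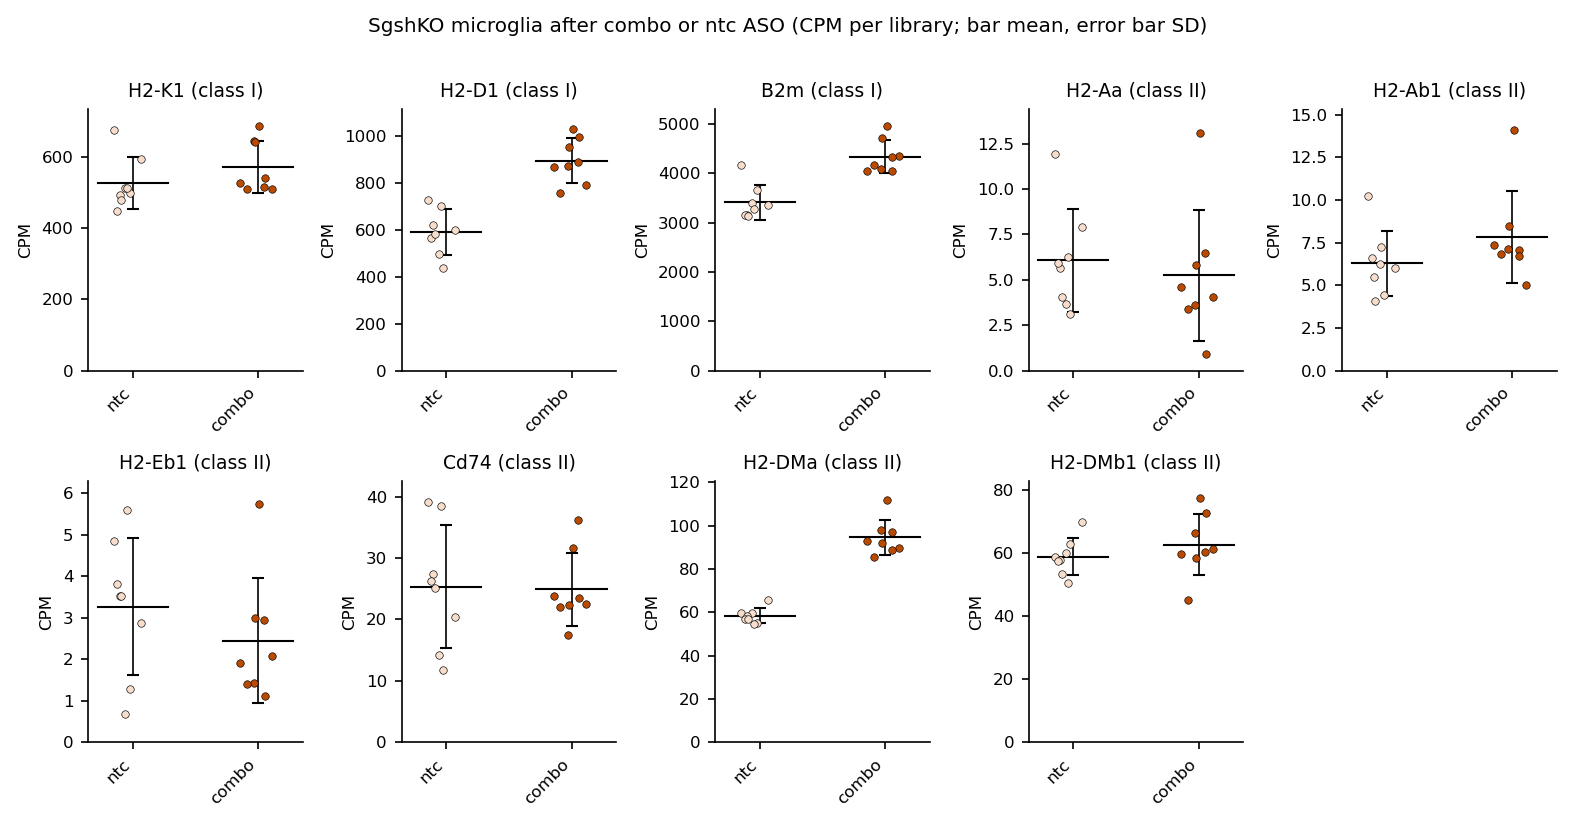
Levels of the 9 listed members in SgshKO microglia after the ntc ASO or the Mitf and Tfe3 combination, in TMM-scaled CPM (vertical axes from 0). Points are libraries of grp 1 and grp 2 together (n = 8 a group) and bars the mean with its SD; H2-DMa with the combination lay at 85.7 to 112, above the 54.6 to 65.5 of ntc, while H2-Aa overlapped.

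With the combination the called genes of the other lists moved by at most 0.65 on the log2 scale, where 9.33% of all genes were called. Of 7 listed other class II genes 3 rose and none fell (median log2 fold change 0.13 against 0.00 over all genes): H2-DMb2 (0.65), H2-Oa (0.49), which encodes a chain of the H2-DM inhibitor H2-O, and Ctss (0.47). Of 14 peptide loading genes 3 rose, Tapbpl (0.32), Psme1 (0.27) and Pdia3 (0.15), and of 12 other class I genes H2-T24 rose (0.25) and Mr1 fell (-0.22). Of 7 co-stimulation genes Cd83 (-0.34) and Cd274 (-0.32) fell. Near-identical copies limit some of these values: 12.8% of the distinct 50-base windows of the annotated H2-D1 transcripts (GENCODE), 9.63% of those of H2-K1, 22.7% of those of H2-DMb1 and 0.488% of those of H2-Aa also occur in transcripts of other genes, of H2-DMb1 all in H2-DMb2. None of the windows of the annotated transcripts of the other 6 members did. Cd74 lies apart from the other members, at 18:60803849-60812652 (mm10).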

How the data were processed

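Microglia RNA-seq libraries were assigned to groups by their titles and treatment labels. The authors deposited raw counts per gene for the age series, the WT ASO set and the SgshKO ASO set, and every gene listed in the ASO tables had counts, so low genes had already been dropped there, by a criterion not given in the sources used here. They also deposited TPM for the age series, which are scaled by transcript length, and a normalised linear signal for the ASO sets, whose method is not given in the sources used here. The submitters' processing notes name mm10, STAR 2.5.3a, kallisto 0.44.0, HOMER 4.11, DESeq2 1.36.0 and R 4.2.3, without roles. Per the labels' protocols the libraries were strand-specific (dUTP), 2 RNA kits and 2 sequencers were used, and these are not tied to libraries, so they cannot be modelled.

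Each count table was fitted once by the quasi-likelihood F test of edgeR 4.0.16 (TMM; genes kept by filterByExpr at a minimum of 10), with no covariate in the age series and with the set in the titles (grp) as a covariate in the ASO tables, and p-values were adjusted over all genes tested with a threshold of 0.05. Printed CPM are TMM-scaled and not corrected for set. SE is the log2 fold change divided by the square root of F, and 95% intervals are taken from it. The column of PBS replicate 4 carries grp 3 while its title carries grp 4; the title was used. Ratios between members were compared by exact permutation tests, 2-sided, which did not take the set into account. The count test was tested on simulated data with the same spread for every gene and no effect of set or replicate. That run therefore does not check how set, replicate or gene-specific spread act in these data. Alternatives were RLE factors, no filter, DESeq2 1.42.0, limma 3.58.1 on log2 TPM or signal, the replicate block, a Ddx3y minus Xist covariate, and leaving out each library; leaving out SgshKO 8-month libraries 1 and 3 together and fitting grp 1 or grp 2 alone were chosen after seeing the data. Promoter windows are RefSeq entries of GRCm38.p6; 7 of 10 members matched, and that of H2-Aa starts 52 bases from the position in the count table.

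The members and lists were chosen with earlier results of these data known. All members are described; other genes named are the up to 3 called genes with the largest change in each list, at a mean of at least 1 CPM, and the 5 genes with the highest r; some genes that this rule names are not reported here. No 2 libraries held identical values. Deviations from group means of same-numbered libraries correlated at -0.173 to 0.143 in the age series and, within group and set, at 0.031 to 0.624 in the SgshKO ASO set (5 of 8 pairs over 0.1), so numbers there were not taken as pairs. In the WT ASO set, where each number is also its grp, they correlated at 0.030 to 0.695 (39 of 40 pairs over 0.1), and the block was kept.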

Additional observations from a re-analysis of the deposited data

Results flagged for a closer look

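In 7 of 88 sets of 1 member in 1 group, 1 library stood apart from the others; chance gives about 1 in 20. H2-Aa was 2.23 CPM in WT 8-month replicate 2, where the others were at 0.708 to 0.832, and 21.8 CPM in SgshKO 8-month replicate 2, where the others were at 27.8 to 30.8. The library grp 1 replicate 2 with the combination was the highest of its group in 4 members: H2-Aa at 13.1 CPM (others 0.909 to 6.45), H2-Ab1 at 14.1 (5.03 to 8.48), H2-Eb1 at 5.75 (1.10 to 3.00) and H2-DMa at 112 (85.7 to 97.9). H2-DMa was also 65.5 CPM in grp 1 replicate 2 with ntc (others 54.6 to 59.6).

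The SgshKO effect differed between ages by the interaction test (log2 difference, edgeR). Between 8 months and 3 weeks the differences were 5.01 for H2-Aa, 4.71 for H2-Eb1, 4.71 for Ciita, 2.66 for Cd74, 2.43 for H2-Ab1, 1.32 for H2-D1, 0.84 for H2-K1, 0.75 for H2-DMa and 0.73 for B2m. Between 4 months and 3 weeks they were 1.77 for Cd74 and 0.70 for B2m, and between 8 and 4 months 3.07 for H2-Aa.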

How the results depend on the processing

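No member reversed its direction in any of the alternatives run for a called member. Of 978 refitted values of called members, 555 left out 1 library (26 lost the call) and 423 used another setting (9 lost it). Of the values of members not called, 4 of 685 and 22 of 514 gained one. The counts of members called under the other settings stayed within 1.5 times of the reported ones except as follows. The interaction of 4 months and 3 weeks called 4 members with DESeq2 and 1 with the replicate block, which took Cd74 to an adjusted p of 0.0675. WT at 8 months against 3 weeks called 4 without the filter on low counts. The tfeb ASO called 3 with DESeq2, 2 with limma on log2(signal + 1) or log2(signal + 0.1) and 0 with no replicate block; the tfe3 ASO called 2 with RLE factors, DESeq2 and both limma fits. The replicate block changed no other call in the age series or the SgshKO ASO set; without it in the WT ASO set H2-DMa under mitf also lost its call (0.174).

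Leaving out 1 library gave 4 to 6 members called at 4 months, 0 to 3 for the interaction of 4 months and 3 weeks (0 without WT 3-week replicate 1, WT 4-month replicate 2 or SgshKO 4-month replicate 1), 0 to 2 for that of 8 and 4 months (0 without WT 4-month replicate 1, 2 without SgshKO 8-month replicate 2), 1 to 2 for WT at 8 months against 3 weeks (1 without WT 3-week replicate 3), 2 to 3 for mitf and 0 to 2 for tfeb (0 without ntc replicate 1, 2 without ntc replicate 3). It gave 4 at 3 weeks, 8 at 8 months, 9 for the interaction of 8 months and 3 weeks, 10 for SgshKO at 8 months against 3 weeks, 1 for tfe3, 0 for ntc against PBS and 3 for the combination. Counts over all genes moved by more than 1.5 times for the interaction of 4 months and 3 weeks (361; 685 with DESeq2, 585 and 852 with limma on TPM), that of 8 and 4 months (56; 131 unfiltered, 163 with DESeq2, 34 and 270 with limma, 21 with the replicate block), WT ageing (1094; 468 with the Ddx3y minus Xist covariate), mitf (1128; 211 with no replicate block), tfeb (80; 213 with DESeq2, 145 and 147 with limma, 9 with no block), tfe3 (222; 403 with DESeq2, 29 with no block) and the combination (988; 452 without the set, 192 in grp 1, 430 in grp 2). Leaving out 1 library moved such counts to 1441 to 2708 at 4 months (2794), 100 to 699 and 4 to 125 for those interactions, 664 to 1156 for WT ageing, 621 to 970 for mitf, 24 to 63 for tfeb and 79 to 140 for tfe3. The cause was not tested. Depth limits Ciita, with 0 to 69 counts a library in the age series, most.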
